A study of Mus musculus with 32 samples.

Results

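Voltage-gated calcium and sodium channels were followed as a family of 35 genes of the 19938 that the array names. They are those whose symbol in the platform's annotation begins with Cacna, Cacnb or Cacng, or is Scn with a number and an a or b. Of 35556 probe sets 51 carry only such a symbol, and each gene was read at its probe set with the greatest mean log2 intensity across the 32 arrays. The genes comprise 10 calcium channel pore subunits, 4 alpha2delta, 3 beta and 7 gamma subunits, 8 sodium channel pore subunits and 3 sodium channel beta subunits, and 3 probe sets shared by several of them were left out. The series holds blood and cerebellum of 5 Fmr1-KO and 5 WT mice (the Fmr1 cohort) and of 3 Tsc2+/- and 3 WT mice (the Tsc2 cohort), 1 array for each mouse and tissue. Per the study's methods the Fmr1 cohort was C57BL/6 congenic and the Tsc2 cohort had a mixed 129/SvJae-C57BL/6J background, and mice were killed at 8 to 10 weeks. Fmr1-KO mice lack FMRP, an RNA-binding protein that represses translation, and Tsc2+/- mice are heterozygous for tuberin, an inhibitor of mTOR signalling, since homozygous loss is lethal. The labels give the mice as female and the study's methods as male.

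A voltage-gated channel opens when the membrane depolarizes. In neurons sodium channels carry the upstroke of the action potential, and calcium channels turn it into calcium entry that releases transmitter and shapes firing. The pore protein senses voltage, the alpha2delta and beta subunits bring calcium channels to the membrane and tune them, and most gamma proteins of the brain are better known for carrying AMPA-type glutamate receptors to synapses.

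Fmr1, the deleted gene, did not overlap between genotypes. It had an intensity of 169 to 263 in Fmr1-KO and 335 to 660 in WT blood, and 142 to 306 and 832 to 917 in cerebellum. Tsc2 overlapped between genotypes in blood (621 to 890 in Tsc2+/- and 731 to 1008 in WT mice) but not in cerebellum, with 713 to 999.5 in Tsc2+/- and 1110 to 1176 in WT cerebellum. Y-linked genes were bright and Xist was dim on every array, against the label. The Purkinje cell gene Pcp2 (3409 to 5311) and the granule cell gene Gabra6 (3774 to 6506) were bright in every cerebellum. Choroid plexus markers summed to 1041 in Tsc2+/- mouse 1 and 877 in Tsc2-WT mouse 2, against 7424 to 20110 on the other 14 cerebellum arrays. Platelet markers summed to 2306 in the blood of Tsc2+/- mouse 2 and 1633 in that of Tsc2-WT mouse 3, against 21110 to 39410 elsewhere. Fewer cells of a type and less RNA per cell cannot be told apart here.

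Promoters of the family were read from RefSeq on GRCm38.p6, as windows of 250 bases before and 50 bases after a transcription start. Of the 35 genes 27 matched, with 37 windows, and Cacna1a, Cacna1g, Cacna1h, Cacna2d4, Cacng1, Cacng4, Scn3a and Scn3b did not. The 3 windows shown are of genes called brighter in cerebellum in both cohorts and were picked to show how unlike such starts are, from GC-rich to AT-rich. Capitals mark the GC box GGGCGG, or its complement CCGCCC, and the E-box CAGCTG, which reads the same on both strands. Each sequence runs 5′ to 3′ along the gene's strand.
Cacna2d3 (chr14:29721815-29722114, minus strand): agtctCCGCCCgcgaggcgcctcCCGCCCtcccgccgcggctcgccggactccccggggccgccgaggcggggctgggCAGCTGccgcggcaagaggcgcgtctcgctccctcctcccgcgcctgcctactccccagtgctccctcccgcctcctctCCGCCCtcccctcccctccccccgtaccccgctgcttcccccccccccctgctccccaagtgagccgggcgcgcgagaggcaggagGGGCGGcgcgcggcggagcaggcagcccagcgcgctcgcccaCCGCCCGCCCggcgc
Cacng2 (chr15:78119231-78119530, minus strand): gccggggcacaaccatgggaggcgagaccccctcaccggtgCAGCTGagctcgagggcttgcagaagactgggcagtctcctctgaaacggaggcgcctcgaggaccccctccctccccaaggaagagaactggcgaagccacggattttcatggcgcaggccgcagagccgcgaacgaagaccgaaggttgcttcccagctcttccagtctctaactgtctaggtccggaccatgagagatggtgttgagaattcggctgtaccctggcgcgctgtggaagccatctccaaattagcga
Scn2b (chr9:45117626-45117925, plus strand): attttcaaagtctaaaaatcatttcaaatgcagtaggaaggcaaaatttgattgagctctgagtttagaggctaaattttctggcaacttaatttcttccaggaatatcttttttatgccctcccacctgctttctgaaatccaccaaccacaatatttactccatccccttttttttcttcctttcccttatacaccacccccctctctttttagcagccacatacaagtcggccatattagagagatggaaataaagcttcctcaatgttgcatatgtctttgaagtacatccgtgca
The Cacna2d3 window is 81.3% G and C and holds 41 CpG pairs, 6 GC boxes and 1 E-box. That of Cacng2 is 61% G and C with 20 CpG pairs and 1 E-box, and that of Scn2b is 38.3% with 2 CpG pairs and neither motif.

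Over the 37 windows G and C ranged from 33% to 87.3%, with a median of 57.3% beside 52.7% over all 32851 RefSeq windows. Of 11 motifs searched on both strands, the GC box stood in 37.8% against 35.7% of all windows and the E-box CAGCTG in 35.1% against 16.3%, in windows of 12 genes. TATAAA stood in 5.41% against 13.6% (Cacna1d and Scn2a), GGACAGC in 2.7% against 6.56%, AGATAA in 2.7% against 11.2% and TGATAA in 2.7% against 9.05%. CACGTG stood in 0 of the 37 and 7.15% of all windows, and TTCCGG in 0 and 14.9%. The cyclic AMP response element TGACGTCA stood in 0 and 1.79%. The arms of the site of REST, a repressor of neuronal genes, are TTCAGCACC (0 of the 37 and 0.371% of all) and GGACAGC above. The shorter form CAGCACC, which the first arm contains, stood in 0 and 7.14%. A match is a description of the letters in a window, and several genes have more than 1 window.

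Most members were brighter in cerebellum than in blood, and none was called dimmer. In the Fmr1 cohort 29 of 35 genes were called higher (limma, adjusted p under 0.05), where 51.8% of all probe sets were, and 0 were called lower, where 20% of all probe sets were. In the Tsc2 cohort 26 were called higher and 0 lower, beside 31% and 26.4% of all probe sets. The 26 are all among the 29, which also hold Cacna1f, Cacnb2 and Scn9a. The median log2 difference, cerebellum minus blood, was 3.18 over the family and 0.52 over all probe sets in the Fmr1 cohort, and 3.15 and 0.03 in the Tsc2 cohort. The counts of 0 depended on scaling: with each array centred on its median, Cacna1h, Cacna1s, Cacna2d4, Cacng1 and Scn11a were called lower in the Fmr1 cohort (5 genes), and Cacna1s and Scn11a in the Tsc2 cohort (2 genes). The shares of all probe sets called lower with this centring are not given here, so these 2 counts have no reference. At an unadjusted p under 0.05 limma put 30 members of the Fmr1 cohort past the threshold, the one added being Cacna1s, which was lower, and 26 of the Tsc2 cohort. Of all 35556 probe sets 26283 and 21903 were past it. The unmoderated linear model also called 0 lower.

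Many members had blood intensities near 0, where a log2 difference grows without limit, so levels were also set against olfactory and vomeronasal receptor genes, receptors of the nose. On each array the 95th percentile of their 1210 probe sets, called the nasal receptor level here, was 158 to 264 on blood arrays and 126 to 551 on cerebellum arrays. The last value is that of Fmr1-KO mouse 1, and the other 15 cerebellum arrays reached at most 260. In blood 2 members, Cacna1i and Cacng1, lay above it on all 16 arrays, 10 on some and 23 on none. In cerebellum 19 lay above it on all 16 arrays, 9 on some, and 7 on none (Cacna1f, Cacna1s, Scn3a, Scn7a, Scn9a, Scn10a and Scn11a). Without the cerebellum array of Fmr1-KO mouse 1 these counts were 24, 4 and 7. Of the 560 values of the family in blood 100 were under 16, and of the 560 in cerebellum 0 were. Where a gene was above this level on every cerebellum array of a cohort and on no blood array, its fold is given as a bound, the mean log2 intensity in cerebellum against the mean of the higher of the blood value and the nasal receptor level of each blood array. Such bounds ran from 4.92-fold (Cacng5) to 48.3-fold (Scn2a) for 11 genes of the Fmr1 cohort, with a median of 17.5-fold, and 15 genes had a bound without that array. For 17 genes of the Tsc2 cohort they ran from 2.44-fold (Cacng3) to 53.9-fold (Scn2a), with a median of 12-fold.

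**Figure D1:**
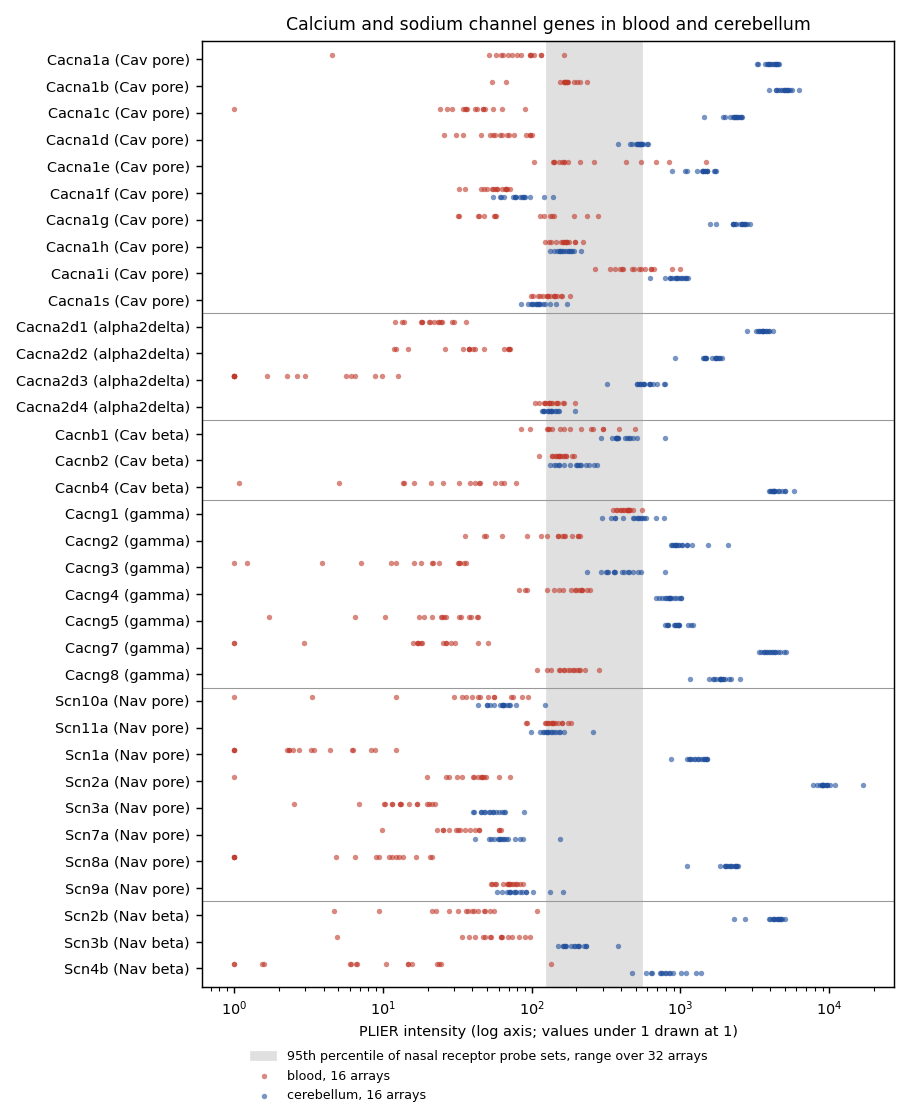
Intensity of each channel gene (rows, by subunit class) on 16 blood arrays (red) and 16 cerebellum arrays (blue), on a log axis with values under 1 drawn at 1; the grey band spans the nasal receptor level of the 32 arrays, 126 to 551. Genes such as Cacna1a, Cacna2d1, Cacnb4, Cacng7, Scn2a and Scn2b lie to the right of the band in cerebellum, whereas the points of both tissues lie together for Cacna1h, Cacna1s, Cacna2d4 and Scn11a.

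Among the calcium channel pores, Cacna1a encodes the P/Q-type channel of nerve terminals and Purkinje cells, whose mutants are ataxic. Its intensity was 4.54 to 116 (median 67.1) on the 10 blood arrays of the Fmr1 cohort and 3283 to 4542 (median 3998) in cerebellum, at least 20.1-fold higher. In the Tsc2 cohort it was 73.5 to 164 on 6 blood arrays and 3315 to 4623 in cerebellum, a log2 difference of 5.27 (SE 0.18). The tissues did not overlap in either cohort. Cacna1b, the N-type pore of nerve terminals, was likewise apart, with log2 differences of 5.02 (SE 0.23) in the Fmr1 and 4.93 (SE 0.10) in the Tsc2 cohort.

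Cacna1c, an L-type pore of heart and brain, had 0.595 to 89.6 (median 39.1) in blood and 1437 to 2549 (median 2338) in cerebellum of the Fmr1 cohort. It rose at least 11.1-fold there and at least 13.5-fold in the Tsc2 cohort. Cacna1d, the other L-type pore of neurons, rose by 3.45 and 2.57 on the log2 scale. Both L-type pores of other tissues were near the nasal receptor level or under it. Cacna1f, that of the retina, was under it on all 32 arrays, and its call in the Fmr1 cohort (0.80, SE 0.15) was lost with median centring (0.25, limma adjusted p = 0.0981). Cacna1s, that of skeletal muscle, had the lowest difference of the family in both cohorts, -0.24 (SE 0.11) with 110 to 180 in blood and 99.1 to 172 in cerebellum, and -0.18 (SE 0.11). Its limma adjusted p was 0.0597 and 0.197, and it was called lower in the Fmr1 cohort once the cerebellum array of Fmr1-KO mouse 1 was left out.

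The T-type pores, which open near the resting potential, differed from one another. Cacna1g, known from thalamus and cerebellum, had 48.1 to 281 in blood and 1582 to 2776 in cerebellum of the Fmr1 cohort and rose at least 15-fold in the Tsc2 cohort. Cacna1i had 268 to 667 and 622 to 1060, with log2 differences of 1.04 (SE 0.14) and 0.62 (SE 0.15), both called although the tissues overlapped. Cacna1h did not pass, with -0.02 and 0.07. Cacna1e, the R-type pore, rose by 3.16 (SE 0.13) in the Fmr1 cohort, where the tissues were apart, and by 1.23 (SE 0.35) in the Tsc2 cohort, where they overlapped.

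Of the alpha2delta subunits, which lie outside the membrane, Cacna2d1 and Cacna2d2 are the targets of gabapentin. Cacna2d1 had 18.4 to 36.3 (median 24.3) in blood and 2789 to 3918 (median 3547) in cerebellum of the Fmr1 cohort, a log2 difference of 7.13 (SE 0.10). Its limma adjusted p was the smallest of the family in both cohorts, 1.47e-20 and 7.98e-12. Cacna2d2, which is lost in the ataxic ducky mouse, rose at least 7.49-fold and 9.98-fold. Cacna2d3 had fitted differences of 9.40 (SE 1.34) and 9.72 (SE 1.29), but its 16 blood values were all under 16, and the bound in the Tsc2 cohort was 3.99-fold. Cacna2d4, known from the retina, had 112 to 197 in blood and 118 to 197 in cerebellum of the Fmr1 cohort and was not called in either.

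The beta subunits sit on the inner side of the pore. Cacnb4, lost in the ataxic lethargic mouse, had 1.08 to 78.8 (median 18.6) in blood and 4047 to 5785 (median 4254) in cerebellum of the Fmr1 cohort, at least 22.3-fold, and rose at least 25.3-fold in the Tsc2 cohort. Cacnb1 rose by 1.54 (SE 0.18) in the Fmr1 cohort and by 0.46 (SE 0.16) in the Tsc2 cohort, where the tissues overlapped. The latter call (limma adjusted p = 0.0326) was lost without any 1 of Tsc2+/- mice 1 and 3 and Tsc2-WT mice 1 and 2 (adjusted p 0.0661, 0.114, 0.0712 and 0.0939 by limma). Cacnb2 passed in the Fmr1 cohort (0.45, SE 0.12), with its sign turned by median centring (-0.09), and had 0.04 (SE 0.12) in the Tsc2 cohort, where it did not pass. Whether the cohorts differ in it was not tested.

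In the gamma group 6 of 7 genes were called in each cohort. Cacng7 had the largest rise, from 0.322 to 51.2 (median 17.6) in blood to 3388 to 5112 (median 3894) in cerebellum of the Fmr1 cohort, at least 20.3-fold, and at least 23.9-fold in the Tsc2 cohort. Cacng2 encodes stargazin, an AMPA receptor partner lost in the ataxic stargazer mouse. It had 35.7 to 213 and 859 to 2075 in the Fmr1 cohort and rose at least 6.01-fold in the Tsc2 cohort. Its second probe set, not read for the gene, had 0.00318 to 39.8 in blood and 1443 to 3228 in cerebellum of the Fmr1 cohort. Cacng3, Cacng4, Cacng5 and Cacng8 rose by 6.33, 2.18, 5.94 and 3.15 in the Fmr1 cohort and by 3.86, 2.69, 4.84 and 3.79 in the Tsc2 cohort. Cacng1, the gamma subunit of skeletal muscle, had 393 to 549 in blood and 342 to 771 in cerebellum and did not pass (0.24, SE 0.12, and 0.09, SE 0.16 in the Tsc2 cohort).

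Among the sodium channel pores, Scn2a (Nav1.2), a pore of axons with the largest bound of the family in both cohorts, had 28 to 71.6 (median 46.4) in blood and 8208 to 16810 (median 9105) in cerebellum of the Fmr1 cohort, and 0.0945 to 40.8 and 7793 to 10940 in the Tsc2 cohort. Scn8a (Nav1.6), the pore of nodes of Ranvier, had 0.00246 to 20.8 and 1103 to 2306 in the Fmr1 cohort and rose at least 9.72-fold and 13.6-fold. Scn1a (Nav1.1), the gene of Dravet syndrome, had 0.00199 to 8.87 and 868 to 1373 and rose at least 5.92-fold and 8.47-fold. The log2 differences of Scn8a and Scn1a in the Fmr1 cohort, 12.05 (SE 1.84) and 10.89 (SE 1.24), rest on blood values near 0.

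The remaining sodium channel pores, best known from embryonic brain or peripheral nerve, were under the nasal receptor level on all 32 arrays. Scn3a, a channel of the embryonic brain, had 2.55 to 22.3 in blood and 40.6 to 66.7 in cerebellum of the Fmr1 cohort and was called in both cohorts (2.23 and 1.87). Scn7a, a sodium sensor, passed too (1.09, SE 0.28, and 0.74, SE 0.24 in the Tsc2 cohort), but not with median centring in the Fmr1 cohort (0.55), nor in the Tsc2 cohort without Tsc2+/- mouse 3 (0.72) or without Tsc2-WT mouse 1 (0.64) or 2 (0.71). Scn9a, a channel of pain neurons, passed in the Fmr1 cohort (0.42, SE 0.14), but not without both mice numbered 1 (0.31), and its sign turned with median centring (-0.13). Scn10a and Scn11a, tetrodotoxin-resistant channels of sensory neurons, did not pass in either cohort, with 2.04 (SE 1.30) and 0.08 (SE 0.15) in the Fmr1 cohort.

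All 3 sodium channel beta subunits, small membrane proteins that alter gating and adhesion, were called in both cohorts. Scn2b had 4.71 to 52.2 and 2301 to 5065 in the Fmr1 cohort and rose at least 19.8-fold and 25.8-fold. Scn4b, linked to the resurgent current of Purkinje cells, had 0.00161 to 23.3 (median 6.66) and 472 to 1007 (median 735). Scn3b rose by 2.05 (SE 0.36) and 1.88 (SE 0.22).

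Partner genes of these channels were also mostly called higher in cerebellum. All 11 sodium channel partners and axon initial segment genes measured, Scn2a itself among them, were called higher in cerebellum in both cohorts, with median log2 differences of 6.72 and 6.59. Fgf14, a cytoplasmic partner of sodium channels, had 0.00798 to 31.2 in blood and 2312 to 3272 in cerebellum of the Fmr1 cohort. Of 20 calcium channel partners 18 were called higher in the Fmr1 cohort and 14 in the Tsc2 cohort, and 2 lower in each, with medians of 2.24 and 2.17. The 3 genes of the sodium leak channel complex, Nalcn among them, were all called higher (6.25 and 6.75). Store-operated calcium entry, a route that needs no voltage, had another pattern: of its 6 genes 2 were called higher and 3 lower in the Fmr1 cohort, and 1 and 3 in the Tsc2 cohort, with medians of -0.29 and -0.40. Its pore gene Orai1 had 659 to 913 in blood and 217 to 405 in cerebellum of the Fmr1 cohort.

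Between genotypes, no channel gene was listed, at the probe set read for it, at the study's threshold, an unadjusted limma p under 0.01, in any of 6 comparisons. In the Fmr1 cohort 0.304% of all probe sets passed over both tissues, 0.582% in blood and 0.197% in cerebellum, and in the Tsc2 cohort 0.436%, 0.298% and 1.12%. At an unadjusted p under 0.05 limma listed 0, 1 and 0 members in the Fmr1 cohort and 1, 1 and 1 in the Tsc2 cohort. Of all 35556 probe sets it listed 971, 1244 and 592 in the Fmr1 cohort and 1016, 760 and 1757 in the Tsc2 cohort. The unmoderated linear model listed 0 members at 0.01 in all 6. The tests of a difference in the genotype effect also listed 0 members each. Between tissues 0.537% (Fmr1) and 0.596% (Tsc2) of all probe sets passed, and between the models 0.509% in blood and 0.487% in cerebellum. At 0.05 limma listed 1, 2, 1 and 0 members in these 4 tests, beside 1167, 1242, 1289 and 792 of the 35556 probe sets. The unmoderated model listed 0 members at 0.01. Leaving out 1 mouse raised some of these counts to 1. That member was Cacna2d2 without Fmr1-KO mouse 3, Cacna2d1 without Fmr1-KO mouse 5, Scn1a without Fmr1-WT mouse 1 or 4, Cacnb4 or Cacng4 without Tsc2+/- mouse 1 or 2, and Cacna2d3 or Scn8a without Tsc2-WT mouse 1 or 2, respectively. Every mouse was left out in turn in each comparison that held it. The shares of all probe sets listed in these runs are not given here.

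Of the 16 probe sets of the family that were not read for a gene, 1 was listed by genotype, the second of Cacna2d1. It had 9.12, 10.7 and 11 in Tsc2+/- and 18.4, 19.9 and 14.7 in WT blood (-0.78, SE 0.18, limma adjusted p = 1), and 492, 491 and 583 and 586, 714 and 614 in cerebellum. The genotypes did not overlap in either tissue, and over both the difference was -0.53, SE 0.13 (limma adjusted p = 0.999). The brighter probe set had 12.1, 18.4 and 20.9 and 14, 13.4 and 18.1 in blood, which overlapped (0.15, SE 0.26).

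In cerebellum, where most of the family was well above the nasal receptor level, genotype differences were small. In Fmr1-KO mice they ran from -0.22 (Scn2a) to 0.48 (Scn7a) on the log2 scale, with 15 above and 20 below 0. Both ends moved with mice numbered 1: Scn7a was 0.25 without Fmr1-KO mouse 1, on whose array the nasal receptor level was highest, and Scn2a was -0.02 without both mice. In Tsc2+/- mice they ran from -0.32 (Cacna1e) to 0.38 (Scn10a), with 8 above and 27 below 0. The medians were -0.04 and -0.09, beside 0.02 and -0.02 over all probe sets. Of all probe sets 53.8% lay above 0 in the Fmr1 cohort and 45.7% in the Tsc2 cohort.

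**Figure D2:**
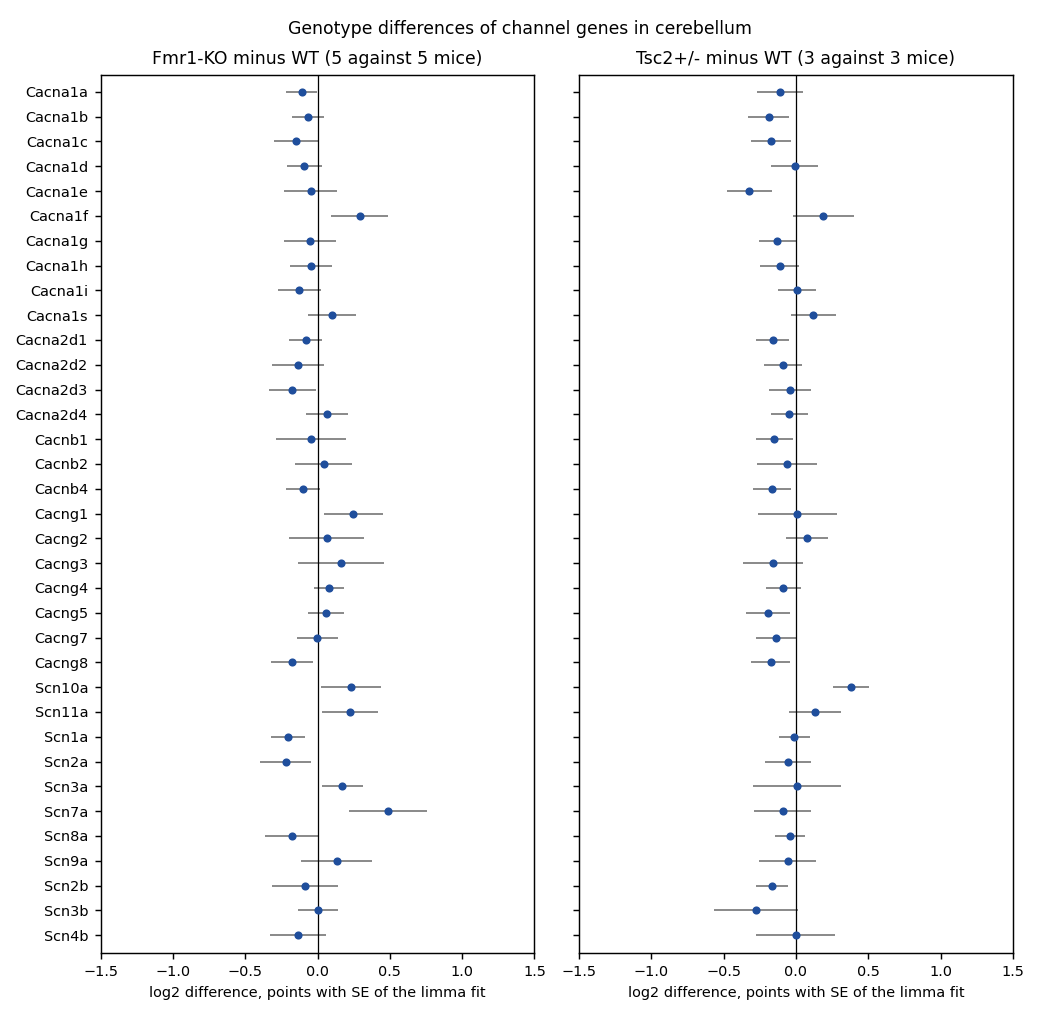
Log2 difference in cerebellum, mutant minus WT, for each channel gene (rows) with the standard error of the limma fit, in the Fmr1 cohort (left, 5 against 5 mice) and the Tsc2 cohort (right, 3 against 3 mice). The points run from -0.22 to 0.48 on the left and from -0.32 to 0.38 on the right.

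Genes of known cerebellar disorders show the spread between mice. Cacna1a had 3283, 3901, 4226, 4065 and 3931 in Fmr1-KO mice 1 to 5 and 4415, 4542, 3793, 4297 and 3869 in WT mice 1 to 5. Cacnb4 had 4248, 4226, 4617, 4260 and 4165 in Fmr1-KO and 5785, 5012, 4047, 4155 and 4288 in WT mice. The groups overlapped for both genes. In the Tsc2 cohort Cacna1a had 4367, 4129 and 3315 in Tsc2+/- and 4409, 4623 and 3685 in WT mice, and Scn8a 2333, 2403 and 2215 and 2368, 2443 and 2345, both overlapping. Scn1a had 868, 1171, 1261, 1137 and 1110 in Fmr1-KO and 1373, 1305, 1152, 1302 and 1223 in WT mice, where KO mice 2 and 3 reached into the WT range. Its log2 difference was -0.20, SE 0.12 (limma adjusted p = 0.999, two-sided exact permutation p = 0.0476, with no correction for the 35 genes). Scn9a in blood had the same exact permutation p, 0.0476, with 70.4, 78.3, 63.9, 83.1 and 87.7 in Fmr1-KO and 57.2, 76.1, 54, 57.5 and 68.6 in WT mice, but its second probe set had the opposite sign (-0.88, SE 1.18).

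The smallest limma p in Fmr1 cerebellum belonged to Scn7a, with 155, 62, 61.7, 64.4 and 87.3 in Fmr1-KO and 76.8, 41.9, 65.2, 55.8 and 53 in WT mice (0.48, SE 0.27, exact permutation p = 0.143). In Tsc2 cerebellum it belonged to Scn10a, with 65.1, 60.9 and 64 in Tsc2+/- and 52.8, 50.1 and 43.5 in WT mice (0.38, SE 0.12, exact permutation p = 0.1, the smallest that 3 against 3 can give). Both genes lay under the nasal receptor level. With 3 against 3 mice any gene whose groups are apart reaches that exact permutation p of 0.1. The share of all probe sets whose groups were apart is not given here. A pair of bright genes were also apart, both lower in Tsc2+/- mice. Cacna2d1 had 3506, 3602 and 3337 in Tsc2+/- and 3834, 4166 and 3693 in WT mice (-0.16, SE 0.11, exact permutation p = 0.1), and Scn2b 4447, 4333 and 3920 and 4682, 4708 and 4818 (-0.16, SE 0.11, exact permutation p = 0.1). Cacna1e, with the lowest difference, had 1452, 1292 and 1105 in Tsc2+/- and 1686, 1716 and 1399 in WT mice (-0.32, SE 0.16, exact permutation p = 0.2), and Tsc2+/- mouse 1 lay inside the WT range.

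Scn2a was read by 14 probe sets along the gene, which share its transcripts and the mice and are no replicates. All 14 were lower in Fmr1-KO than in WT cerebellum, by log2 differences of -0.22 to -0.05 (median -0.15). Without both mice numbered 1 all 14 were still lower, with a median of -0.06. At the brightest probe set the intensities were 8208, 9100, 9710, 9080 and 8672 in Fmr1-KO and 16810, 9614, 9331, 8880 and 9110 in WT mice. WT mouse 1 was far above the rest, and the other 4 WT mice lay within the range of the KO mice. In Tsc2+/- cerebellum 11 of the 14 were lower, with differences of -0.12 to 0.25.

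In blood the lowest genotype p values belonged to genes near 0 or under the nasal receptor level. Scn8a had 9, 11 and 9.51 in Tsc2+/- and 21.5, 12.3 and 16.7 in WT blood (-0.74, SE 0.24, exact permutation p = 0.1), where the groups did not overlap. Over both tissues of the Tsc2 cohort it again had the smallest p (-0.39, SE 0.16, limma adjusted p = 0.999). Scn1a had 2.75, 8.87, 4.44, 2.34 and 3.45 in Fmr1-KO and 6.35, 0.00199, 0.0281, 2.48 and 0.0113 in WT blood (5.28, SE 2.13, exact permutation p = 0.0952). These groups overlapped. Without WT mouse 1 Scn1a passed an unadjusted limma p under 0.01 (6.78), as Scn8a did without Tsc2-WT mouse 2 (-0.95).

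Cacna2d2 had the smallest p over both tissues of the Fmr1 cohort (-0.58, SE 0.28, limma adjusted p = 0.978), and 1 blood array bore on it. Its blood intensities were 12.3, 11.8, 70.7, 14.9 and 26.2 in Fmr1-KO mice 1 to 5 and 37.9, 70.2, 40.3, 34.7 and 37.9 in WT mice (-1.03, SE 0.49, exact permutation p = 0.0952). All KO mice but mouse 3 lay below all WT mice, and all values were under the nasal receptor level. Without mouse 3 the difference in blood was -1.47 (SE 0.30, limma adjusted p = 0.985), past an unadjusted p of 0.01. Over both tissues it was -0.76 without that array.

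The blood array of Fmr1-KO mouse 3 carried more signal of other neuronal genes too. Snap25, a synaptic vesicle fusion gene, had 498 there, against 4.21 to 20.2 in the other Fmr1-KO mice, and 110 in WT mouse 1 against 4.83 to 20 in the other WT mice. The 7 granule cell markers summed to 684, against 88.8 to 387 on the other 15 blood arrays. The 5 Purkinje cell markers summed highest in Fmr1-WT mouse 3 (782, of which 1 marker had 610), and to 631 on the array of Fmr1-KO mouse 3. The 14 Scn2a probe sets had a median of 53.5 there and medians of 0.16 to 10.4 in the other Fmr1-KO mice, and 11 of the 14 were highest there among Fmr1-KO blood arrays. Cacnb4 had 78.8 there, against 5.06 to 44.1. Among the Fmr1-KO blood arrays, 11 of the 29 members called brighter in cerebellum (37.9%) were highest in mouse 3, beside 16.4% of all probe sets. Among the WT blood arrays, 10 (34.5%) were highest in mouse 1 and 9 (31%) in mouse 5, beside 29.5% and 27% of all probe sets, and 7 of the 14 Scn2a probe sets were highest in mouse 1. The part of this signal in the genotype values of blood was not tested.

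**Figure D3:**
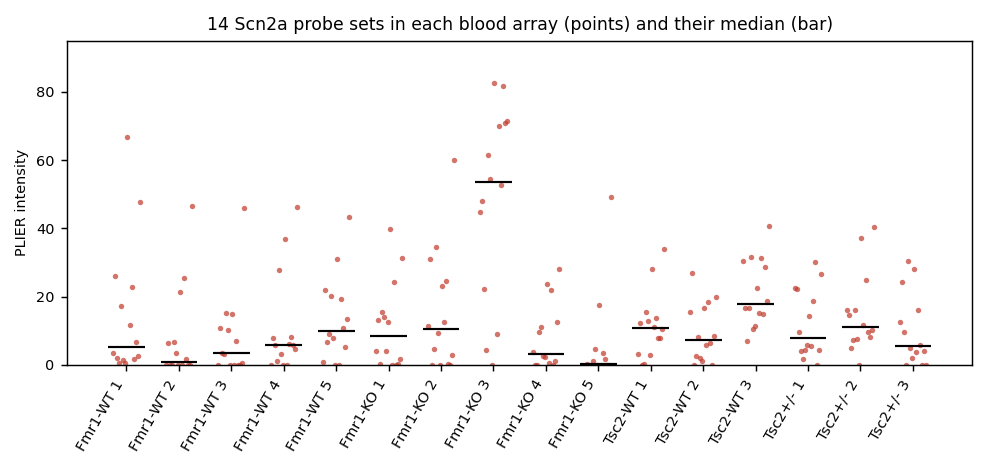
Intensity of the 14 Scn2a probe sets (points) on each of the 16 blood arrays (labelled by group and mouse), with the median as a bar. The median is 53.5 on the array of Fmr1-KO mouse 3 and 0.16 to 17.7 on the other 15.

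The mice numbered 1 of the Fmr1 cohort stood apart in cerebellum in both genotypes. Cacng2 had 2075 in Fmr1-KO mouse 1 against 859 to 1021 in mice 2 to 5, and 1532 in WT mouse 1 against 873 to 978. Scn2b was lower in both, with 2301 against 4015 to 4671 and 2703 against 4202 to 5065. Scn8a stood out in Fmr1-KO mouse 1, with 1103 against 1986 to 2172. Calm2, a calmodulin gene whose protein binds both kinds of channel, had 4109 and 5708 in the mice numbered 1, against 10980 to 15460 in the other 8. Without both mice limma still listed 0 members by genotype over both tissues, in blood and in cerebellum, and called 28 higher in cerebellum.

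**Figure D4:**
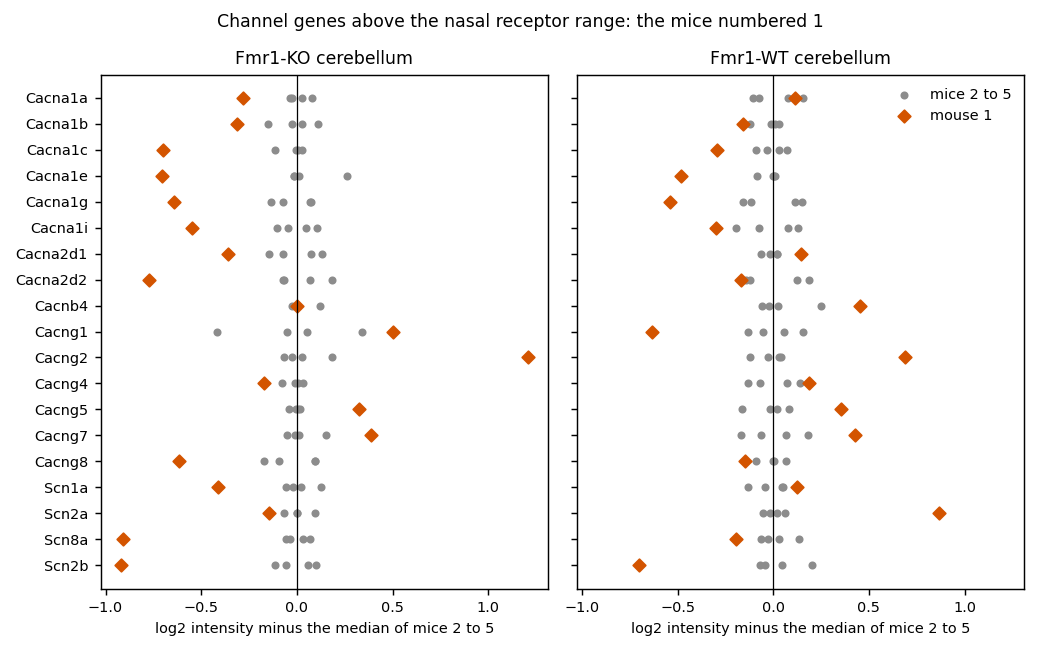
Log2 intensity in cerebellum of each mouse of the Fmr1 cohort minus the median of mice 2 to 5 of its genotype, for the channel genes above the nasal receptor level on all 10 cerebellum arrays. Mouse 1 (orange diamonds) lies far from mice 2 to 5 (grey) in both genotypes for Cacng2 (2075 and 1532) and Scn2b (2301 and 2703).

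The WT mice of both cohorts were also compared, where strain and experiment cannot be told apart. Over both tissues 1 member, Cacna1e, passed an unadjusted limma p under 0.01, where 7.89% of all probe sets did. Its log2 difference, Tsc2 minus Fmr1 cohort, was 0.91, SE 0.27 (limma adjusted p = 0.114), and 0.85 and no longer listed without Tsc2-WT mouse 2. The count was 3 without Fmr1-WT mouse 1, with Cacna1s and Cacnb1 added, and 2 without Tsc2-WT mouse 1, with Cacna1s added. In blood 4 of the 35 members passed, about the share of all probe sets (12%), and in cerebellum 0, beside 1.29%. Passing in blood was thus not particular to the family. At an unadjusted limma p under 0.05 the cerebellum listed 4 members, beside 2911 of all 35556 probe sets. The 4 were Cacna2d3, Cacng4, Cacng8 and Scn10a.

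In blood Cacna1e had 212, 142, 152, 138 and 159 in WT mice 1 to 5 of the Fmr1 cohort and 263, 541 and 839 in WT mice 1 to 3 of the Tsc2 cohort. The groups did not overlap (1.63, SE 0.36, limma adjusted p = 0.0675, exact permutation p = 0.0179, the smallest that 5 against 3 can give). The mutants lay on the same sides as their WT mice, with 104, 142, 165, 174 and 164 in Fmr1-KO and 428, 1475 and 681 in Tsc2+/- blood. In cerebellum the WT mice overlapped, with 1078, 1509, 1503, 1514 and 1418 and 1686, 1716 and 1399.

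Cacnb1 was also higher in blood of the Tsc2 cohort, with 182, 154, 164, 98.1 and 136 and 249, 300 and 492 in the WT mice (1.21, SE 0.28, exact permutation p = 0.0179). Cacna1g was lower, with 138, 236, 56.6, 281 and 194 against 43.4, 44.5 and 55.9 (-1.74, SE 0.50, exact permutation p = 0.0357). So was Cacna2d1, with 22.1, 23.6, 23.8, 18.4 and 24.7 against 14, 13.4 and 18.1 (-0.58, SE 0.16, exact permutation p = 0.0179). None of these groups overlapped, and Cacna2d1 was under the nasal receptor level on every blood array. The limma adjusted p of the 3 genes was 0.0675, 0.0829 and 0.079. WT mice of the cohorts were also apart for Cacna1d and Scn2a in blood. In cerebellum they were apart for Cacna1b, Cacna2d3, Cacng4, Cacng8, Scn1a and Scn8a, all higher in the Tsc2 cohort. How many of all probe sets were apart between WT mice is not given here.

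**Figure D5:**
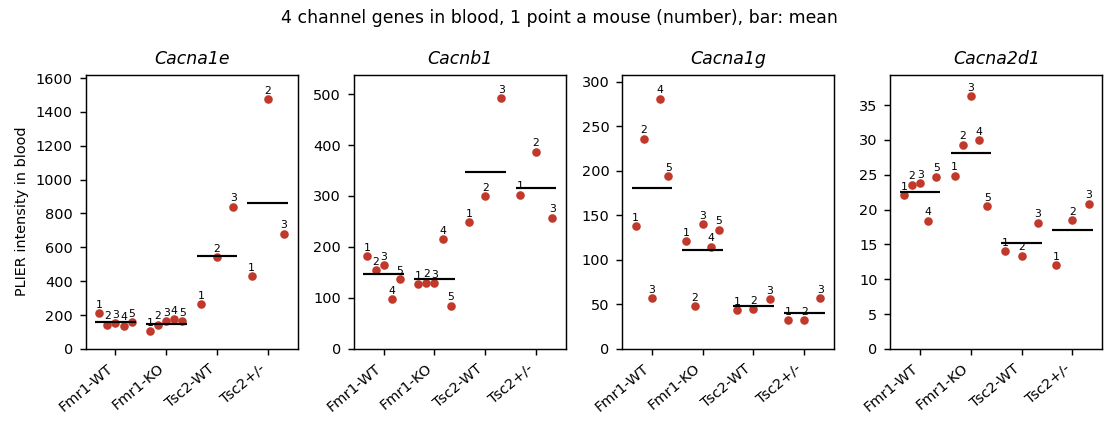
Intensity in blood of Cacna1e, Cacnb1, Cacna1g and Cacna2d1 in the 4 groups, 1 point for each mouse with its number and the group mean as a bar. For Cacna1e the 10 mice of the Fmr1 cohort lie at 104 to 212 and the 6 of the Tsc2 cohort at 263 to 1475.

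Some blood cell markers also differed between the cohorts. The 4 T cell markers summed to 5142 to 8314 in the Fmr1 and 10460 to 31790 in the Tsc2 cohort, and the 3 B cell markers to 8546 to 14870 and 15330 to 23680, with no overlap in either. The 5 neutrophil markers summed to 3842 to 13750 and 1412 to 9845, which overlapped. The highest Cacna1e values, 1475 and 839, came from the 2 arrays low in platelet markers, and the latter array also had the highest T cell sum and the highest Cacnb1. Without Tsc2-WT mouse 3 the difference between WT mice in blood was 1.25 (SE 0.31, limma adjusted p = 0.168) for Cacna1e, still listed, and 0.93 (SE 0.26, limma adjusted p = 0.175) for Cacnb1 and -1.85 (SE 0.62) for Cacna1g, no longer listed. Scn2a was then listed (-0.82). Without both arrays low in platelet markers Cacna1e remained listed over both tissues (0.65). The part of blood cell composition in these differences was not tested.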

How the data were processed

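RNA of blood and cerebellum from 16 mice was hybridised to 32 Affymetrix Mouse Gene ST arrays. The authors deposited an intensity for each of 35556 probe sets, on a linear scale, summarised with PLIER in Affymetrix Power Tools after probe-level quantile normalization across the arrays. PLIER leaves values near 0, which inflates log2 differences there. Groups came from the labels. The log2 intensity, without an offset, was fitted for all probe sets with limma 3.58.1 in R 4.3.3, separately in each cohort, with tissue and genotype as terms and no mouse term, as in the study's methods. Tissue calls needed a Benjamini-Hochberg adjusted p under 0.05, and other comparisons an unadjusted p under 0.01, two-sided. Single genes were also tested within a tissue by exact permutation. The fits were tested on simulated data.

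No arrays were identical. Labels do not say whether mice came from separate litters, so p-values within a tissue measure the spread between these mice. Fits over both tissues counted the blood and cerebellum arrays of a mouse as separate. Their p-values thus measure the spread between arrays. Both tissues with 1 number come from the same mouse (correlation within a mouse 0.00817 and 0.0607). The numbers of mutant and WT mice were not taken as pairs, since same-numbered deviations correlated at -0.36 to 0.59, without a common sign. In cerebellum the best match had the same number for Fmr1 number 1 (0.45) and Tsc2 numbers 1 and 3 (0.59 and 0.42). In blood this held for Tsc2 number 1 (0.22), and for the other numbers it did not hold. The members, lists and naming rule were chosen with earlier results of these data known. By that rule every member is named, and in detail those with the largest rise or fall per class, 5 textbook disease genes, and the smallest p of each genotype comparison. Tissue groups of over 5 arrays are given by their range. Symbols of all 35 members were current in RefSeq. Alternatives were an offset, 2 other normalizations, other variance models, a filter on dim probe sets, other thresholds, blocks, and leaving out mice or arrays. Leaving out both mice numbered 1 or single blood arrays, the comparison of WT mice within a tissue and the promoters shown were chosen after seeing the data.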

Additional observations from a re-analysis of the deposited data

Results flagged for a closer look

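In groups of 5 mice, a mouse was taken to stand apart where its gap to the nearest other mouse was over 0.71 of the range of the group, which chance gives in about 1 in 20 groups. This held in 24 of the 140 groups of the Fmr1 cohort. Values of genes on 1 array are not independent, and the share over all probe sets is not given here. Groups of 3 were not tested.

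In cerebellum 15 of 16 such mice were numbered 1. Fmr1-KO mouse 1 was low for Cacna1c (1437), Cacna1d (381), Cacna2d3 (319), Scn2b (2301) and Scn8a (1103), and high for Cacnb1 (479), Cacng2 (2075), Cacng5 (1207), Scn7a (155) and Scn10a (124). WT mouse 1 was low for Cacna1e (1078) and high for Cacnb1 (792), Cacng2 (1532), Cacng3 (783) and Scn2a (16810). Cacnb1 and Cacng2 were high in mouse 1 of both genotypes. The remaining value was Cacnb4 in Fmr1-KO mouse 3 (4617).

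In blood the 8 values that stood apart fell on 8 arrays. Among Fmr1-KO mice they were Cacna2d4 in mouse 1 (197, high), Cacna1g in mouse 2 (48.1, low), Cacna2d2 in mouse 3 (70.7, high) and Scn4b in mouse 4 (23.3, high). Among WT mice they were Cacna1e in mouse 1 (212, high), Cacna2d2 in mouse 2 (70.2, high), Cacna1b in mouse 4 (54.1, low) and Cacna2d3 in mouse 5 (8.9, high).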

How the results depend on the processing

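The counts of members higher in cerebellum, 29 and 26, stayed within 1.5 times in every alternative, with 29 to 30 and 24 to 26 when single mice were left out. With the mouse as a replicate block they were 29 and 26, and the genotype and interaction counts with a mouse or number block were 0; the block changed no call. Members called lower in the Fmr1 cohort were 5 with median centring and 1 (Cacna1s) with quantile normalization within tissue, without the cerebellum array of Fmr1-KO mouse 1, and without both mice numbered 1, and 0 to 1 with single mice left out; in the Tsc2 cohort they were 2 with median centring and 0 to 0 with mice left out. Median centring turned the sign of Cacnb2 (-0.0928) and Scn9a (-0.13) in the Fmr1 cohort. Leaving out single mice gave 0 to 1 members by genotype in the Fmr1 cohort over both tissues and in blood and in Tsc2 blood, 0 to 1 in both tissue interactions and in the interaction between models in blood, and 0 to 3 between WT mice. At p under 0.05 the counts were 1 in Fmr1 blood, 1 each in the 3 Tsc2 genotype comparisons, 1 (Fmr1) and 2 (Tsc2) for the tissue interactions, 1 between models in blood, and 4 between WT mice. Of all 35556 probe sets 8359 passed it between WT mice, and the other counts over all probe sets are given above. Quantile normalization within tissue listed 1 (Cacna2d1) in Fmr1 blood and in its tissue interaction, and leaving out both mice numbered 1 listed 1 (Scn1a) in the latter. Without the blood array of Fmr1-KO mouse 3, 1 (Cacna2d2) was listed over both tissues, in blood, in the tissue interaction and between models in blood. Without the 2 arrays low in platelet markers the Tsc2 tissue interaction listed 3 (Cacna1c, Cacng4 and Cacng7). Between WT mice the count of 1 became 2 with 16 added, median centring, no moderation, trend and robust moderation, or the filter on dim probe sets, and 3 without both mice numbered 1. Except at p under 0.05, the shares of all probe sets in these alternatives are not given here, so their counts of members have no reference. The causes were not tested. Values near 0 in blood, and 3 against 3 mice, limit what can be seen.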
